A study of Homo sapiens with 9 samples.

Results

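The 8 enzymes of glycosphingolipid synthesis described here were followed across treated and untreated intestinal epithelial cell lines. They were UGCG at the entry to the pathway, A4GALT, B3GALNT1 and GBGT1 of the globo series, B4GALNT1 and B3GALT4 of the ganglio series, and UGT8 and GAL3ST1 of the sulfatide branch. A gene was taken when the RefSeq identifier of a probe set, a group of short probes read together for a transcript, mapped to it. All 8 of 8 genes were measured, by 9 of the 1259 probe sets on the array, which stood for 927 named genes. A4GALT had 2 probe sets and each other gene had 1. The series used arrays of glycosylation genes to look for enzymes behind a sialylated variant of the adhesion protein CD44 that the antibody GM35 detects. The data form 3 groups of 3 arrays, all made from 0.5 ug of total RNA. The first was T84, a human colon carcinoma line, given 100 U/ml interferon gamma for 24 h; the sources used here do not give its passage. The second was untreated T84 at passage 68, and the third was untreated Caco-2, another human colon carcinoma line, at passage 37. The untreated cells were harvested at about 90% confluence from 6-well plates. Each line comes from a single tumour, and its passage goes with it, so line and passage cannot be told apart. The labels number the replicates without tying them to separate cultures, so each p-value reflects variation among these arrays alone, some or all of which could be technical.

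Glycosphingolipids are membrane lipids in which a sugar chain sits on ceramide. UGCG, glucosylceramide synthase, adds the first glucose, and a galactose then makes lactosylceramide, the branch point from which the globo, ganglio and lacto or neolacto series grow by the competing action of Golgi transferases. In the globo series A4GALT makes Gb3, the cell receptor of Shiga toxin, B3GALNT1 extends it to Gb4, and GBGT1 is known from the dog as the enzyme that turns Gb4 into the Forssman glycolipid. In the ganglio series B4GALNT1 makes GM2 and GD2 from sialylated lactosylceramide, and B3GALT4 adds the next galactose to give GM1. The sulfatide branch starts apart from these, with UGT8 joining galactose to ceramide and GAL3ST1 sulfating that galactose. Such lipids are abundant in the apical membrane of the intestinal epithelium.

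Levels were log2 signals after RMA, a method that corrects background, equalises arrays and summarises each probe set, so 1 unit is a doubling. Array medians lay between 6.70 and 6.80, and arrays of the same group correlated at 0.987 to 0.999 across probe sets. Caco-2 replicate 1 stood apart, with a root mean square deviation of 0.274 log2 units from its group mean, against 0.0573 to 0.177 in the other 8 arrays. It gave the highest or lowest value of the Caco-2 group for 8 of 8 genes, as it did for 81.9% of all probe sets, so the differences of the 8 enzymes from Caco-2 and the counts of pathway lists are given below with and without it. Identical values recurred in the table: 44.4% of probe sets had at least 2 arrays with exactly equal values. The treatment check passed, with CXCL9, an interferon-induced chemokine, at 11.92 ± 0.49 in treated T84 and 5.79 ± 0.12 in untreated T84 (SD, n = 3 each). CXCL10, CD74 and ICAM1 rose too, by 5.11, 3.54 and 3.17 log2 units (limma, adjusted p from 1.91e-08 to 3.98e-06). Of 13 intestinal epithelial markers 3 were measured, and the summed linear signal of MUC2, MUC13 and LGALS4 was 10940 to 11470 in treated T84 and 12410 to 12430 in untreated T84, against 1087 to 1246 in Caco-2. The gap was uneven: untreated T84 stood above Caco-2 by 6.10 log2 units in LGALS4, 2.07 in MUC13 and 0.40 in MUC2. Leukocyte markers (10 of 18 measured, 4 of them below the 25th percentile of probe set means, 5.41) summed to 505.6 to 522 in treated T84, 477.9 to 517.5 in untreated T84 and 461.7 to 498.8 in Caco-2. Fibroblast and endothelial markers (10 of 15 measured, 8 of them below it) summed to 499.8 to 512.6 in treated T84, 466.8 to 515.3 in untreated T84 and 696.4 to 754.9 in Caco-2.

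Interferon gamma changed none of the 8 enzymes detectably. In treated against untreated T84, 0 of 8 genes passed an adjusted p of 0.05 in limma, and 0 of 8 had an unadjusted p under 0.05. Over all 1259 probe sets 10.2% passed, 4.37% higher and 5.8% lower. The differences of the 8 genes ran from -0.15 to 0.15 log2 units with a median of 0.01, against a median of -0.01 over all probe sets. The median size of the change was 0.04 in the 8 genes and 0.07 over all probe sets. The widest 95% interval reached 0.49 log2 units, so on the deposited scale a change in signal of more than 1.40-fold lay outside the interval of every gene. With arrays centred on ribosomal protein probe sets UGCG differed by 0.23 ± 0.17 (SE, limma adjusted p = 0.492), so the bound holds for the deposited scale only. For B4GALNT1 and B3GALNT1 the interval does not bound the change in transcript, since a flat or dim signal may not follow it. B4GALNT1 read 5.87 in all 3 treated arrays. B3GALNT1 averaged 3.91 in treated and 3.86 in untreated T84, under 5.41, the 25th percentile of probe set means. The 3 treated arrays lay wholly above or below the 3 untreated ones in 1 of 8 genes, against 27.5% of all probe sets. The errors behind these tests and intervals were pooled over all arrays, so the Caco-2 spread enters them. A fit of only the 2 T84 groups also called 0 of 8 genes higher and 0 lower. Its smallest adjusted p among the 8 was that of UGCG, at 0.153 ± 0.055 log2 units (SE, limma adjusted p = 0.148), where the pooled SE was 0.145.

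Between the lines 4 of the 8 enzymes differed. B3GALNT1, GBGT1 and GAL3ST1 were lower in T84 than in Caco-2, and B3GALT4 was higher, with and without interferon gamma. Treated T84 against Caco-2 gave 1 higher and 3 lower of 8, where 19.4% and 26.2% of all probe sets were higher and lower and 45.6% passed in either direction. Untreated T84 against Caco-2 also gave 1 higher and 3 lower of 8, where 19.5% and 24.2% of all probe sets were higher and lower and 43.7% passed in either direction. The share of 4 in 8 was therefore near the background of each comparison. Groups did not overlap in 4 of 8 genes in each, against 53.5% of all probe sets for treated T84 and 49.6% for untreated T84. The median size of the difference was 0.28 log2 units in the 8 genes against 0.21 over all probe sets for treated T84, and 0.34 against 0.20 for untreated T84. Both comparisons use the same 3 Caco-2 arrays, so they are not independent of each other.

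**Figure D1:**
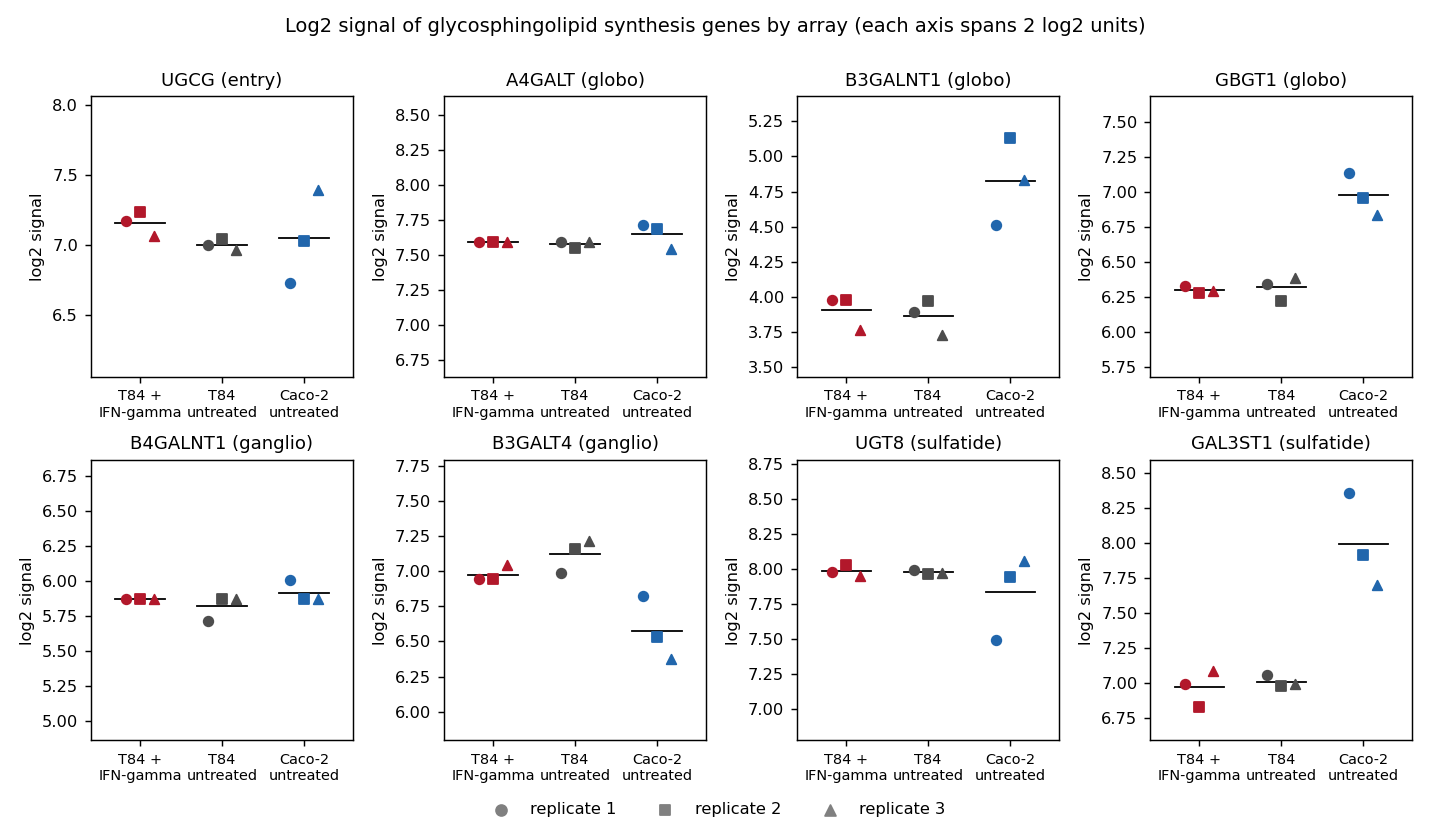
Log2 signal (vertical axis, each panel spanning 2 log2 units) of the 8 enzymes in each of the 9 arrays, with T84 given interferon gamma on the left, untreated T84 in the middle and Caco-2 on the right, marker shapes for the replicate number and a bar at the group mean. In B3GALNT1, GBGT1 and GAL3ST1 all 6 T84 arrays lie below all 3 Caco-2 arrays, in B3GALT4 all 6 lie above, and in the other 4 genes the lines overlap.

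These differences hold on the deposited scale, and part of them depends on how arrays are set level. When each array was centred on its 50 ribosomal protein probe sets, the median of all probe sets moved to 0.29 from 0.02 log2 units for treated T84 against Caco-2, and to 0.21 from 0.02 for untreated T84 against Caco-2. The calls over all probe sets then became 795 higher and 227 lower in treated T84, against 244 and 330 on the deposited scale. In untreated T84 they became 675 higher and 232 lower, against 245 and 305. B3GALNT1, GBGT1 and GAL3ST1 stayed lower and B3GALT4 higher under that centring. A4GALT, B4GALNT1 and UGT8 passed as higher in treated T84 with it, by 0.22, 0.23 and 0.42 log2 units (limma, adjusted p = 0.00482, 0.0269 and 0.022), which gave 4 higher and 3 lower of 8. In treated against untreated T84 the median of all probe sets moved to 0.06 from -0.01 log2 units under that centring, and none of the enzymes passed. In bulk RNA, fewer cells that express a gene and less RNA per cell cannot be told apart.

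UGCG, which commits ceramide to the glucose-based series, did not pass the test in any comparison and varied widely among the Caco-2 arrays. Its log2 signal was 7.17, 7.24 and 7.06 in treated T84, 7.00, 7.05 and 6.97 in untreated T84, and 6.73, 7.03 and 7.40 in Caco-2. The treated arrays all lay above the untreated T84 arrays by a small margin, while the Caco-2 arrays spanned both. The difference of treated from untreated T84 was 0.15 ± 0.14 log2 units (SE, 95% interval -0.18 to 0.49, limma adjusted p = 0.698). Treated T84 differed from Caco-2 by 0.11 ± 0.14 (-0.23 to 0.44, adjusted p = 0.595) and untreated T84 by -0.05 ± 0.14 (-0.38 to 0.28, adjusted p = 0.816). The SD was 0.09 in treated and 0.04 in untreated T84, against 0.33 in Caco-2, and the Caco-2 spread enters every test because it is pooled over all 9 arrays. In the fit of only the 2 T84 groups, treated differed from untreated T84 by 0.153 ± 0.055 (SE, limma adjusted p = 0.148). Without Caco-2 replicate 1, the array with the lowest value, the difference of treated T84 from Caco-2 turned to -0.06 and that of untreated T84 was -0.21. Without replicate 3, the highest, that of untreated T84 turned to 0.12.

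A4GALT, Gb3 synthase, did not pass the test in any comparison by either of its probe sets. The probe set with the higher mean read 7.59 in all 3 treated arrays, 7.59, 7.55 and 7.59 in untreated T84, and 7.72, 7.68 and 7.54 in Caco-2. The same value, 7.5936, stood in 4 of the 9 arrays, so the SD of 0.002 in treated T84 says little about the spread of the gene. The other probe set, which can cross-hybridise by its suffix, read 7.40, 7.37 and 7.37 in treated T84, 7.36, 7.30 and 7.32 in untreated T84, and 7.51, 7.42 and 7.39 in Caco-2. Treated differed from untreated T84 by 0.01 ± 0.05 log2 units (SE, -0.11 to 0.13, limma adjusted p = 0.956) in the first and by 0.05 ± 0.05 (-0.05 to 0.16, adjusted p = 0.657) in the second. Against Caco-2 the first probe set differed by -0.06 ± 0.05 (-0.17 to 0.06, adjusted p = 0.424) in treated T84 and by -0.07 ± 0.05 (-0.19 to 0.05, adjusted p = 0.337) in untreated T84. The second differed by -0.06 ± 0.05 (adjusted p = 0.313) and -0.12 ± 0.05 (adjusted p = 0.0769), and in the untreated comparison its groups did not overlap. When Caco-2 replicate 1, the highest array of that group, was left out, the first probe set differed by -0.02 in treated and -0.03 in untreated T84 and the second by -0.03 and -0.08 (limma, adjusted p from 0.159 to 0.76). The signs against Caco-2 turned for both probe sets under ribosomal protein centring. Without Caco-2 replicate 3, the lowest array of that group, untreated T84 passed as lower in both probe sets, at -0.12 (limma, adjusted p = 0.0485, range over the alternatives 0.0485 to 0.666) and -0.14 (adjusted p = 0.0435, range 0.0435 to 0.313).

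B3GALNT1, which adds N-acetylgalactosamine to Gb3 and so makes Gb4, was lower in T84. It read 3.98, 3.98 and 3.76 in treated T84, 3.89, 3.97 and 3.73 in untreated T84, and 4.51, 5.13 and 4.83 in Caco-2. Every T84 array lay below every Caco-2 array, and the 2 T84 groups overlapped. Treated T84 was 1.89-fold lower than Caco-2 (interval 1.49 to 2.39-fold, -0.92 ± 0.15 log2 units, limma adjusted p = 0.00094). Untreated T84 was 1.95-fold lower (1.54 to 2.47-fold, -0.96 ± 0.15, adjusted p = 0.000763). Without Caco-2 replicate 1, the Caco-2 array nearest to T84, the differences were -1.07 for treated T84 (limma, adjusted p = 0.000116) and -1.12 for untreated T84 (adjusted p = 0.000104). With interferon gamma B3GALNT1 differed by 0.04 ± 0.15 (-0.30 to 0.38, adjusted p = 0.949). The signal was dim: the mean over all arrays, 4.20, lay below the 25th percentile of probe set means, and its probe set is shared among transcripts.

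GBGT1, at the Forssman step of the same chain, followed B3GALNT1 in direction. It read 6.33, 6.28 and 6.29 in treated T84, 6.34, 6.22 and 6.39 in untreated T84, and 7.14, 6.95 and 6.84 in Caco-2. The 6 T84 arrays spanned 6.22 to 6.39 and the Caco-2 arrays lay wholly above them. Treated T84 was 1.60-fold lower than Caco-2 (1.41 to 1.81-fold, -0.67 ± 0.08 log2 units, limma adjusted p = 0.000126), and untreated T84 was 1.58-fold lower (1.39 to 1.79-fold, -0.66 ± 0.08, adjusted p = 0.000173). Without Caco-2 replicate 1, here the highest array, the differences were -0.59 (limma, adjusted p = 9.82e-05) and -0.58 (adjusted p = 0.000129). With interferon gamma GBGT1 differed by -0.02 ± 0.08 (-0.20 to 0.17, adjusted p = 0.966). This probe set too is shared among transcripts.

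B4GALNT1, the GM2 and GD2 synthase, gave an almost constant reading. It stood at 5.87 in all 3 treated arrays, at 5.72, 5.87 and 5.87 in untreated T84, and at 6.01, 5.87 and 5.87 in Caco-2. Exactly 5.8728 was listed in 7 of the 9 arrays, which only 0.635% of probe sets matched or exceeded. Only replicate 1 of untreated T84 and replicate 1 of Caco-2 departed from that value, and the tests rest on those 2 arrays. Treated differed from untreated T84 by 0.05 ± 0.06 log2 units (SE, -0.08 to 0.19, limma adjusted p = 0.782). Treated T84 differed from Caco-2 by -0.05 ± 0.06 (-0.18 to 0.09, adjusted p = 0.58) and untreated T84 by -0.10 ± 0.06 (-0.23 to 0.04, adjusted p = 0.239), with both signs turned under ribosomal protein centring. The differences were 0.00 and -0.05 without Caco-2 replicate 1 (limma, adjusted p = 1 and 0.511).

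B3GALT4, which makes GM1 from GM2, was the single enzyme of the 8 that was higher in T84 than in Caco-2. It read 6.94, 6.94 and 7.05 in treated T84, 6.99, 7.16 and 7.21 in untreated T84, and 6.82, 6.53 and 6.37 in Caco-2. All T84 arrays lay above all Caco-2 arrays, with Caco-2 replicate 1 the nearest to them. Treated T84 was 1.32-fold higher than Caco-2 (1.10 to 1.58-fold, 0.40 ± 0.11 log2 units, limma adjusted p = 0.0179), and untreated T84 was 1.46-fold higher (1.22 to 1.75-fold, 0.55 ± 0.11, adjusted p = 0.00397). The treated call was lost without treated replicate 3 (0.37, limma adjusted p = 0.0615), without Caco-2 replicate 2 (0.38, adjusted p = 0.055) and without Caco-2 replicate 3 (0.30, adjusted p = 0.0529), within a range of 0.000267 to 0.0615 over the alternatives. Without Caco-2 replicate 1 both differences were larger, at 0.52 for treated T84 (limma, adjusted p = 0.000994) and 0.67 for untreated T84 (adjusted p = 0.000267). Between treated and untreated T84 the difference was -0.15 ± 0.11 (-0.40 to 0.11, adjusted p = 0.604), so an interferon effect on this gene was not detectable.

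UGT8, which makes galactosylceramide, the substrate of sulfatide synthesis, did not pass the test in any comparison on the deposited scale. It read 7.98, 8.03 and 7.95 in treated T84, 7.99, 7.97 and 7.98 in untreated T84, and 7.50, 7.95 and 8.06 in Caco-2. The 6 T84 arrays lay between 7.95 and 8.03, and Caco-2 replicate 1 lay below them all. Treated differed from untreated T84 by 0.01 ± 0.13 (SE, -0.28 to 0.30, limma adjusted p = 0.992). Treated T84 differed from Caco-2 by 0.15 ± 0.13 (-0.14 to 0.44, adjusted p = 0.366) and untreated T84 by 0.14 ± 0.13 (-0.15 to 0.43, adjusted p = 0.409). Without Caco-2 replicate 1 these became -0.02 and -0.02.

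GAL3ST1, the sulfotransferase that completes sulfatide, was lower in T84, by about as much as B3GALNT1. It read 7.00, 6.83 and 7.09 in treated T84, 7.06, 6.98 and 7.00 in untreated T84, and 8.35, 7.92 and 7.70 in Caco-2. The T84 arrays overlapped each other and lay below every Caco-2 array. Treated T84 was 2.03-fold lower than Caco-2 (1.60 to 2.57-fold, -1.02 ± 0.15 log2 units, limma adjusted p = 0.000529), and untreated T84 was 1.97-fold lower (1.55 to 2.50-fold, -0.98 ± 0.15, adjusted p = 0.000735). Without Caco-2 replicate 1, the highest array, the differences were -0.84 (limma, adjusted p = 0.000119) and -0.80 (adjusted p = 0.000174). Between treated and untreated T84 it was -0.04 ± 0.15 (-0.38 to 0.30, adjusted p = 0.955). In the sulfatide branch, then, GAL3ST1 passed the test between the lines and UGT8 before it did not, and the difference between these 2 results was not tested.

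**Figure D2:**
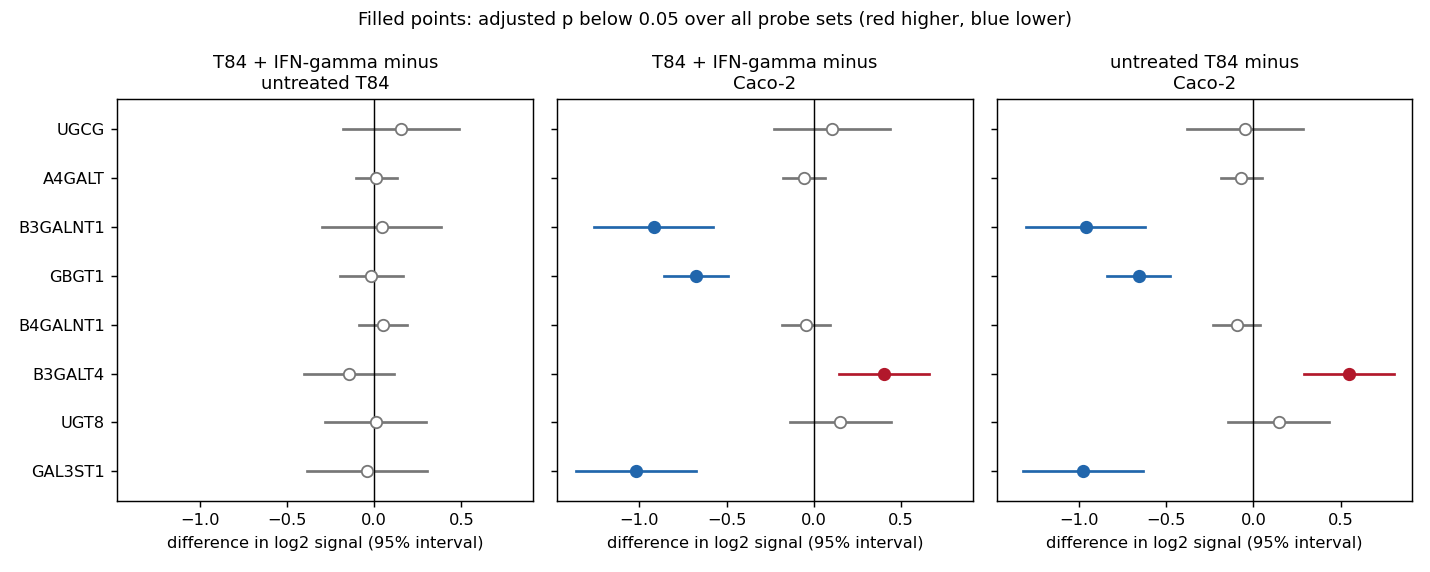
Difference in log2 signal (horizontal axis) with its 95% interval for the 8 enzymes in treated minus untreated T84, treated T84 minus Caco-2, and untreated T84 minus Caco-2, from left to right, with filled points past an adjusted p of 0.05. All 8 intervals in the left panel include 0, and in the other panels GAL3ST1, B3GALNT1 and GBGT1 lie below 0 and B3GALT4 above.

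The fibroblast and endothelial marker sums were also lower in both T84 groups than in Caco-2, as B3GALNT1, GBGT1 and GAL3ST1 were. Of the 10 measured markers 4 were lower in each T84 group (BGN, LUM, PDGFRA and PECAM1) and 0 were higher, while 8 of 10 had means under 5.41. Their part in the differences of the enzymes was not tested. In treated against untreated T84, 0 of 10 leukocyte and 0 of 10 fibroblast and endothelial markers passed in limma. Of the 3 intestinal epithelial markers 2 passed, in opposite directions: MUC13 was higher by 0.40 log2 units (limma, adjusted p = 0.0104) and LGALS4 was lower, at -0.53 (adjusted p = 0.000241), while MUC2 differed by 0.16 (adjusted p = 0.29).

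The promoters of the 3 enzymes lower in T84 are shown because these genes moved together between the lines. Each is the 300-base RefSeq window at the outermost annotated start of the gene, from 250 bases before it to 50 after, on the minus strand of GRCh38.p14 and written 5′ to 3′. Capitals mark a GC box (GGGCGG) or a CCAAT box on either strand, and no matches overlapped.
GBGT1, chr9:133163865-133164164: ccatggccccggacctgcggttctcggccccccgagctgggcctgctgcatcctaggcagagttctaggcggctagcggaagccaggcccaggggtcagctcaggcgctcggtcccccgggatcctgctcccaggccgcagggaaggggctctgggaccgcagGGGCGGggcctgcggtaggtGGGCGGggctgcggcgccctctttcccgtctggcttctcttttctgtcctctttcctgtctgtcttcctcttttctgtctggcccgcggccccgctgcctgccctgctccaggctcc
GAL3ST1, chr22:30574616-30574915: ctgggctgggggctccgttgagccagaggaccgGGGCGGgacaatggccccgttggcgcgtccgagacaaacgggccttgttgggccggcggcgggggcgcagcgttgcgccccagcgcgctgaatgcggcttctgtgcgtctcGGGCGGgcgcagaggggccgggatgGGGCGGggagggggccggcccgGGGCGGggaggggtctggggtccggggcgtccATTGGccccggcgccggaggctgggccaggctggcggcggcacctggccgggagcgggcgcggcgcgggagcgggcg
B3GALNT1, chr3:161105300-161105599: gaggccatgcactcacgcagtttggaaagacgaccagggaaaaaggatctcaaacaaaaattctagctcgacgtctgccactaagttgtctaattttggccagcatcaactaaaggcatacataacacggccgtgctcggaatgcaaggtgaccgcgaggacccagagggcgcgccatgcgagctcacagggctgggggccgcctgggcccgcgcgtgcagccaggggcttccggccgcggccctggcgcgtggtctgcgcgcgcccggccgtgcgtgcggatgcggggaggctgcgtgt
The GBGT1 window held 2 GC boxes and was 70.3% G and C. The GAL3ST1 window shown held 4 GC boxes and 1 CCAAT box, read as ATTGG on this strand, and was 80.0% G and C. The windows at the other 2 GAL3ST1 starts held 0 GC boxes and were 57.7% and 58.7% G and C, the first with 1 CCAAT box. The B3GALNT1 window shown held neither motif and was 63.7% G and C, and of the windows at its other 2 starts 1 held 2 CCAAT boxes and 1 held 2 GC boxes. Which start these cells use was not tested. Over all 35116 promoters of the set the median was 58.7% G and C.

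Windows were given for 6 of the 8 genes, 13 in all, since several genes have more than 1 annotated start. Besides GBGT1, GAL3ST1 and B3GALNT1 these were UGCG, A4GALT and UGT8. Motifs were searched on both strands: a GC box was in 9 of the 13 windows and a CCAAT box in 4, against 45.0% and 34.6% of 35116 promoters of the same length. A TATA box (TATAAA) was in 0 of 13, against 11.5%. The interferon gamma-activated element (TTCNNNGAA) was in 1 of 13, a B3GALNT1 window at another start, against 7.66%. The interferon-stimulated response element (GAAANNGAAA) was in 0 of 13, against 3.57%. A match is a run of letters and not a shown binding site, and its absence says only that these letters are not in this window.

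Around the 8 enzymes, 7 further lists of pathway genes were measured, and an eighth, ceramide supply, had 0 of 12 genes on the array. In treated against untreated T84, 6 of their 49 measured genes passed in limma (12.2%), near the 10.2% of all probe sets, and all 6 were lower. Against Caco-2, 26 of 49 passed in treated T84 (53.1%, against 45.6% of all probe sets) and 23 of 49 in untreated T84 (46.9%, against 43.7%). With Caco-2 replicate 1 left out these counts were 7, 30 and 28 of 49, against 14.1%, 50.8% and 47.7% of all probe sets. The lists are described by their members, and whether any single list stands apart from the other probe sets was not tested. The 6 calls with interferon gamma were 2 sulfate donor genes, 3 breakdown genes and 1 sulfotransferase, and the other 4 lists had 0. Of 4 measured sulfate donor genes 2 were lower in treated than in untreated T84, where 5.8% of all probe sets were lower, with a list median of -0.24 log2 units against -0.01 over all probe sets. PAPSS2, which makes the activated sulfate that sulfotransferases such as GAL3ST1 use, averaged 8.85 ± 0.07 in treated T84 and 9.89 ± 0.02 in untreated T84, against 8.15 ± 0.26 in Caco-2 (SD, n = 3 each). It fell 2.06-fold with interferon gamma (-1.04 ± 0.12, limma adjusted p = 0.000704) and kept that call in all 21 alternatives, and it was higher than in Caco-2 by 0.70 in treated and 1.74 in untreated T84. Its paralogue PAPSS1 fell by 0.23 (adjusted p = 0.0453), a call lost in 16 of 21 alternatives (adjusted p from 0.00913 to 0.254), among them leaving out any array but Caco-2 replicate 1. Against Caco-2 it differed by -1.17 in treated and -0.94 in untreated T84, and both passed. SLC35B2 and SLC35B3, which carry the donor into the Golgi, did not pass, at -0.26 and -0.17.

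Of 5 measured sulfotransferases of other galactose residues 1 was lower in treated than in untreated T84, where 5.8% of all probe sets were lower, so the gene is given for its own value. GAL3ST4, a relative of GAL3ST1 that acts on glycoproteins, averaged 7.40 ± 0.05 in treated T84 and 8.10 ± 0.13 in untreated T84, against 6.89 ± 0.18 in Caco-2. It fell 1.62-fold with interferon gamma (-0.70 ± 0.10, limma adjusted p = 0.00312) and kept that call in all 21 alternatives. Against Caco-2 it was higher by 0.52 in treated and 1.21 in untreated T84, the opposite direction to GAL3ST1. CHST3, a chondroitin sulfotransferase, differed from Caco-2 by -2.97 in treated and -3.09 in untreated T84 and by 0.12 with interferon gamma, which did not pass.

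Most breakdown genes are lysosomal hydrolases and helper proteins that take these lipids apart, but the list also holds the sphingomyelinase SMPD1. Of 14 measured, 2 stood higher and 8 lower in treated T84 when set against Caco-2, where 19.4% of all probe sets were higher and 26.2% lower. The list median was -0.83 log2 units against 0.02 over all probe sets. In untreated T84 1 was higher and 7 lower, where 19.5% and 24.2% of all probe sets were, with a median of -0.34 against 0.02. There were 3 higher and 8 lower in treated T84 and 2 higher and 7 lower in untreated T84 without Caco-2 replicate 1, with medians of -0.82 and -0.47. GLB1, the beta-galactosidase that trims GM1, was lower, at -1.13 ± 0.09 in treated and -0.89 ± 0.09 in untreated T84 (limma, adjusted p = 9.35e-06 and 4.54e-05). The sialidase NEU1, whose probe set can cross-hybridise, was lower, at -1.45 in treated and -1.06 in untreated T84. Neither passed in treated against untreated T84, with GLB1 at -0.24 and NEU1 at -0.39, although GLB1 passed as lower when Caco-2 replicate 1 was left out. Further members were chosen after their values were seen. ARSA, which removes the sulfate that GAL3ST1 adds, was lower than in Caco-2, at -0.74 ± 0.08 in treated and -0.83 ± 0.08 in untreated T84. The sphingomyelinase SMPD1 was higher than in Caco-2, at 0.39, in treated T84.

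With interferon gamma 3 of 14 breakdown genes were lower and 0 higher, where 5.8% of all probe sets were lower and 4.37% higher. Each of the 3 calls was lost in some alternatives, and the genes are named after their values were seen. GALC, which splits galactosylceramide, the product of UGT8, averaged 8.23 ± 0.12 in treated T84 and 8.97 ± 0.27 in untreated T84 (-0.74 ± 0.16, limma adjusted p = 0.0185, range over the alternatives 0.00134 to 0.08). The GM2 activator GM2A averaged 9.31 ± 0.03 in treated T84 and 9.94 ± 0.32 in untreated T84 (-0.64 ± 0.16, adjusted p = 0.0442, range 0.0062 to 0.141). The acid ceramidase ASAH1, on a probe set that can cross-hybridise, averaged 8.12 ± 0.08 in treated T84 and 8.66 ± 0.05 in untreated T84 (-0.54 ± 0.11, adjusted p = 0.0168, range 0.000538 to 0.072). The calls were lost in 4, 11 and 7 of 21 alternatives, in the order given. That of GALC was lost without treated replicate 2 or 3 (limma, adjusted p = 0.08 and 0.0659), and that of ASAH1 without treated replicate 2 or 3 or untreated T84 replicate 1 or 3 (0.0518 to 0.072). That of GM2A was lost without any 1 of 7 arrays, all but untreated T84 replicate 2 and Caco-2 replicate 1 (limma, adjusted p from 0.0534 to 0.141).

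The other 4 lists hold synthesis genes, and all of their calls were between the lines. Their counts are to be read against the 19.4% higher, 26.2% lower and 45.6% either way of all probe sets in treated T84, and the 19.5%, 24.2% and 43.7% in untreated T84. Of 8 measured ganglioside sialyltransferases, 1 was higher and 3 lower in treated T84, and 1 higher and 2 lower in untreated T84 (list medians -0.01 and 0.00). Those 4 and 3 of 8 were near these shares, and the counts were the same without Caco-2 replicate 1. ST6GALNAC3, ST6GALNAC6 and ST6GALNAC5 differed from Caco-2 by -2.96, -1.40 and 0.41 log2 units in treated T84 and by -3.09, -1.52 and 0.68 in untreated T84, and all passed. ST6GALNAC3 was dim in T84, at 4.21 in treated and 4.09 in untreated cells, against 7.18 in Caco-2. ST6GALNAC5 lay under 5.41 in every group, at 5.05, 5.31 and 4.64, and its treated call was lost in 2 of 20 alternatives. ST3GAL2, on a probe set that can cross-hybridise, differed by -0.38, which passed, and by -0.16, which did not. The ST3GAL2 call was lost in 2 of 21 alternatives: with ribosomal protein centring the difference was -0.11 (limma, adjusted p = 0.205, range over the alternatives 0.00017 to 0.205), and it was under the 1.5-fold minimum. Of 7 measured genes that start, extend or branch lacto and neolacto chains, 1 was higher and 3 lower in treated T84, and 1 higher and 2 lower in untreated T84 (medians 0.03 in both), again 4 and 3 genes called and near these shares. Leaving out Caco-2 replicate 1 gave 2 higher and 2 lower in treated T84 and 2 higher and 3 lower in untreated T84. GCNT2, the I-branching enzyme, was lower, at -3.45 and -3.57, and B3GALT5, which makes type 1 chains, was higher by 0.78 in both. B4GALT1 was lower, at -0.35 and -0.37, and B4GALT4 was lower, at -0.38, in treated T84. These calls were lost in 10, 7 and 9 of 21 alternatives, and without any 1 of 5, 2 and 4 arrays (limma, adjusted p from 0.0509 to 0.0868).

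Of 6 measured genes that lead from glucosylceramide to lactosylceramide, 0 were higher and 1 lower in treated T84 (median -0.19), and 1 was higher and 1 lower in untreated T84 (median -0.13). Leaving out Caco-2 replicate 1 gave 1 higher and 3 lower in each. B4GALT5, a lactosylceramide synthase and so the step next to UGCG, was lower, at -0.36 and -0.34, a call lost in 5 and 6 of 21 alternatives and without treated replicate 3 in treated T84 and without untreated T84 replicate 2 or Caco-2 replicate 2 in untreated T84 (limma, adjusted p from 0.0508 to 0.0713). The UDP-galactose transporter SLC35A2 was higher by 0.50 in untreated T84 (lost without Caco-2 replicate 2, limma adjusted p = 0.0512) and differed by 0.34 in treated T84, which passed without Caco-2 replicate 1 but not with all arrays. Of 5 measured terminal transferases 3 were higher and 0 lower in each T84 group (medians 0.23 and 0.21), where 19.4% and 19.5% of all probe sets were higher, and the same counts held without Caco-2 replicate 1. FUT2 was higher by 0.85 in treated and 1.02 in untreated T84, FUT1 by 0.69 and 0.52, and ABO by 0.23 and 0.21. The FUT1 call in untreated T84 was lost in 11 of 21 alternatives and the ABO calls in 8 and 10, among them leaving out any 1 of 7 arrays for FUT1 and of 4 and 6 arrays for ABO (limma, adjusted p from 0.0508 to 0.116).

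**Figure D3:**
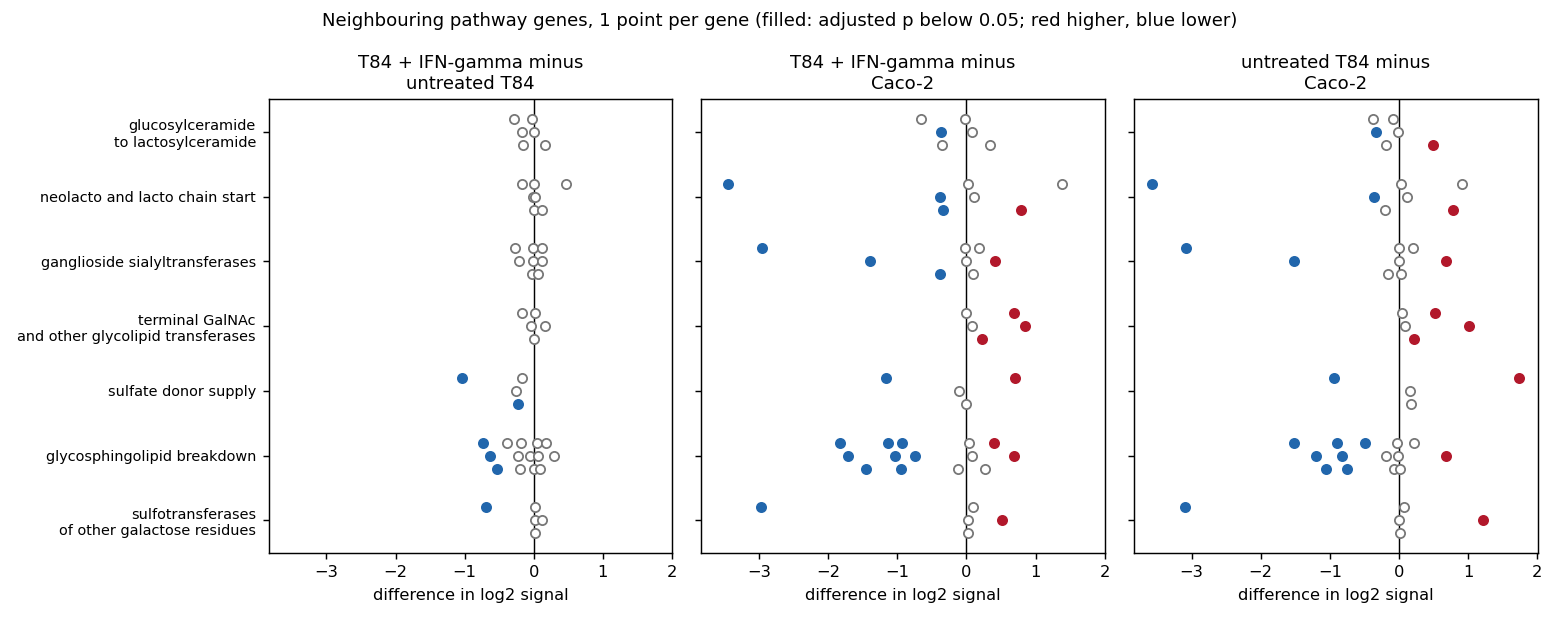
Difference in log2 signal (horizontal axis) of each measured gene of 7 pathway lists (rows) in treated minus untreated T84, treated T84 minus Caco-2, and untreated T84 minus Caco-2, from left to right, 1 point per gene, filled where the adjusted p was below 0.05. The left panel has 6 filled points, all below 0, and breakdown genes have 8 and 7 filled points below 0 in the other panels.

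Pearson's r between the 8 enzymes over the 9 arrays is given as a description, since the arrays form 3 groups and share the contrast between lines and the deviation of Caco-2 replicate 1. GBGT1 and GAL3ST1, whose highest Caco-2 value was in replicate 1, had r = 0.98, while B3GALNT1, lowest there, had 0.85 with GBGT1 and 0.80 with GAL3ST1. B3GALT4 ran opposite to B3GALNT1 (r = -0.91), and UGCG and UGT8, both lowest in Caco-2 replicate 1, had 0.80. A4GALT, highest there, had -0.71 with UGCG and -0.79 with UGT8. The genes most like each enzyme were GALT (0.997) and HYAL1 (0.993) for GBGT1, REG1A (0.986) and HYAL1 (0.984) for GAL3ST1, and STS (0.988) and HNRNPC (0.986) for B3GALNT1. For B3GALT4 they were ATP6V0E1 (0.974) and SLC35A2 (0.972), for A4GALT IL2RB (0.925) and SLC35A4 (0.905), and for B4GALNT1 FCER2 (0.911) and CLEC11A (0.889). For UGT8 they were CLEC6A (0.891) and CBX3 (0.875), and for UGCG they were UGT8 (0.803) and KLRB1 (0.757).

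**Figure D4:**
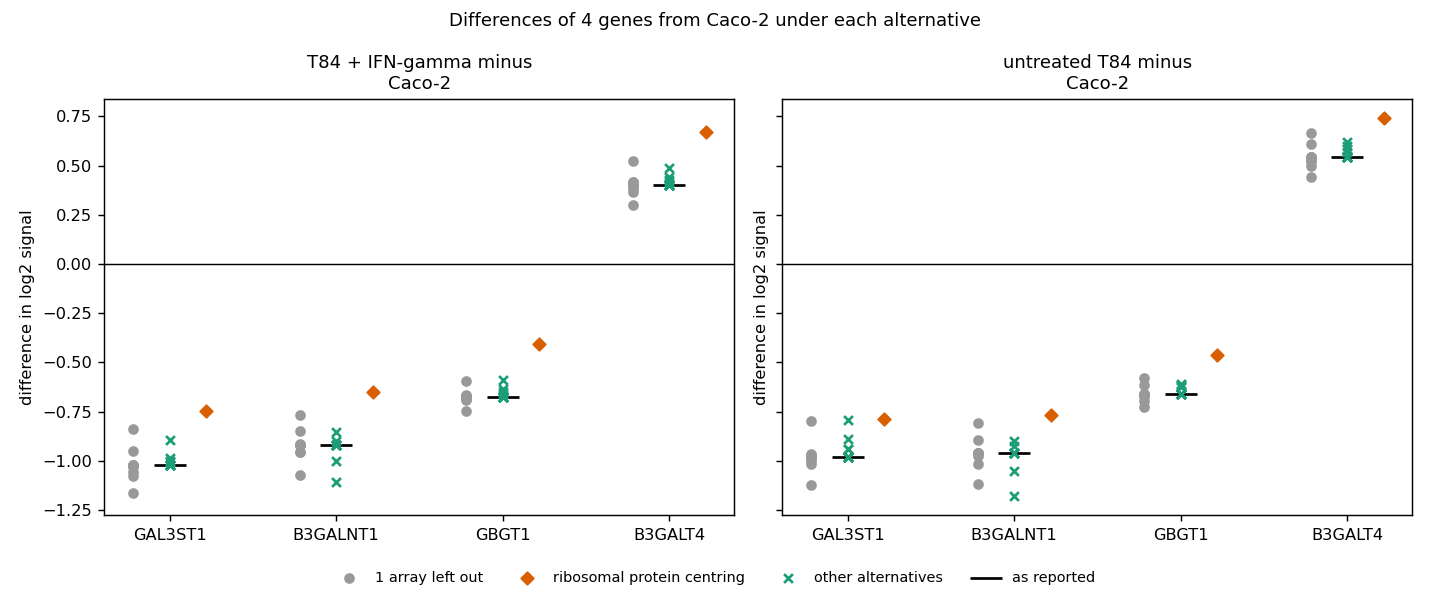
Difference in log2 signal (vertical axis) of the 4 enzymes that differed between the lines, for treated T84 minus Caco-2 (left) and untreated T84 minus Caco-2 (right), as reported (bar), with 1 array left out (grey), with ribosomal protein centring (diamond) and under the other alternatives (crosses). GAL3ST1, B3GALNT1 and GBGT1 stay below 0 and B3GALT4 above 0 throughout, and ribosomal protein centring shifts all 4 upward.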

How the data were processed

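Biotin-labelled cRNA from 9 RNA samples was hybridised to single-colour arrays, per the labels. The deposited values are log2 signals per probe set that the authors made with RMA, per the submitters' processing notes. The sources used here give neither its version nor its probe sets nor the genome build, and the values were used without further normalization. RefSeq identifiers matched, without versions, a RefSeq table of GRCh38.p14, which named 1043 of 1259 probe sets. Where a gene had several probe sets, the brightest on average stood for it.

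A linear model over 3 groups of 3 arrays was fitted to all probe sets with limma 3.58.1 in R 4.3.3 (6 residual and 2.12 prior degrees of freedom, two-sided, Benjamini-Hochberg over 1259, threshold 0.05). Errors of differences are standard errors, errors of means standard deviations, and intervals 95%. The number of arrays limits the precision. In 20 simulations of treated against untreated T84 with 200 of 1259 probe sets changed, 53.7, 87.6, 97.3 and 99.3% of changes of 0.25, 0.5, 1 and 2 log2 units were called, and 4.2% of calls were false.

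The members and lists were chosen with earlier results of these data known. Named are the 8 enzymes, 4 treatment genes, up to 4 genes of each list by the smallest adjusted p, and the 2 genes most like each enzyme. Some genes that this rule takes are not reported here. Same-numbered arrays did not deviate together in every pair (correlations from -0.643 to 0.561), so no pairing was used. In all, 21 alternatives were tried. Promoters are from RefSeq. Figures were drawn with matplotlib 3.10.9.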

Additional observations from a re-analysis of the deposited data

How the results depend on the processing

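B3GALNT1, GBGT1 and GAL3ST1 kept their direction and their call against Caco-2 in every alternative that gave a value (B3GALNT1 had none under the filter on dim probe sets). For treated T84 they ranged from -1.11 to -0.65, from -0.74 to -0.40 and from -1.16 to -0.75 log2 units, and for untreated T84 from -1.18 to -0.77, from -0.73 to -0.46 and from -1.12 to -0.79. Same-numbered arrays did not deviate together in every pair, so a block on the replicate number may not remove a deviation that arrays share. This block left all member calls as they were, with 1 higher and 3 lower in each comparison with Caco-2 and 0 with interferon gamma. Among the pathway genes it ended the calls of PAPSS1, GM2A and ASAH1 with interferon gamma, of B4GALT1, B4GALT4 and ABO in treated T84 and of ABO and FUT1 in untreated T84 against Caco-2. The members higher in treated T84 than in Caco-2, 1 as reported, numbered 4 with ribosomal protein centring, 0 at an adjusted p below 0.01, 0 with a change of at least 1.5-fold added, and 0 to 1 with single arrays left out. In untreated T84 the count was 0 with the 1.5-fold minimum.

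Directions that turned all belonged to differences that had not passed. In treated against untreated T84, median centring turned A4GALT (-0.008) and UGT8 (-0.012), and ribosomal protein centring turned GBGT1 (0.06) and GAL3ST1 (0.036). Leaving out single arrays gave -0.001 to 0.021 for A4GALT, -0.024 to 0.116 for B3GALNT1, -0.063 to 0.019 for GBGT1, -0.013 to 0.027 for UGT8 and -0.098 to 0.031 for GAL3ST1. In treated T84 against Caco-2, ribosomal protein centring gave A4GALT 0.215 and 0.209 in its 2 probe sets and B4GALNT1 0.225, and single arrays left out gave -0.056 to 0.277 for UGCG and -0.015 to 0.265 for UGT8. In untreated T84 against Caco-2, that centring gave UGCG 0.146, A4GALT 0.126 and 0.079, and B4GALNT1 0.097, and single arrays left out gave -0.209 to 0.123 for UGCG and -0.024 to 0.256 for UGT8. After the data were seen, treated replicate 3, untreated T84 replicate 3 and Caco-2 replicate 1, whose deviations correlated at 0.484 to 0.756, were left out together. This turned GBGT1 (0.023) in treated against untreated T84, UGCG (-0.008) in treated T84 against Caco-2 and UGT8 (-0.023) in untreated T84 against Caco-2. The cause of these turns was not tested.

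Counts over all probe sets moved by more than 1.5 times in some alternatives. Against untreated T84, the 55 higher in treated T84 became 87 with array weights and 34 with the 1.5-fold minimum, and the 73 lower became 144 and 32, 36 at an adjusted p below 0.01, and 40, 48 and 44 without treated replicate 2, treated replicate 3 and untreated T84 replicate 3. Against Caco-2, the 244 higher in treated T84 became 368 with array weights, 795 with ribosomal protein centring and 140 with the 1.5-fold minimum, and the 330 lower became 204 with that minimum. In untreated T84 the 245 higher became 675 with that centring and 135 with the minimum, and the 305 lower became 177.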
